A study of Mus musculus with 10 samples.

Results

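The NADPH oxidase of phagocytes and the enzymes that remove its products were examined in hippocampal microglia of 3xTg AD mice. The set holds 9 genes chosen by symbol, *Cybb*, *Cyba*, *Ncf1*, *Ncf4*, *Rac2*, *Nos2*, *Sod1*, *Sod2* and *Gpx1*, of the 55453 genes in the count table. All 9 were found there, and 8 passed the filter on low counts that left 14481 genes for testing. Microglia in the CD45int CD11b+ gate came from hippocampi of 3xTg females older than 15 months and were sequenced in 10 bulk RNA libraries. The mice carry human transgenes that include Swedish APP and P301L MAPT, driven by the neuronal Thy1.2 promoter, so the treated and the control group share the same genotype and sex. The GA group (n = 5) was given glatiramer acetate, an immunomodulatory drug used in multiple sclerosis, at 0.1 mg an injection, once a week for about 8 weeks with 1 further injection in the first week, and the PBS group (n = 5) was given the buffer alone. The mice were retired breeders, no non-transgenic library was analysed here, and the labels do not say whether a library comes from 1 animal, so that the P-values measure the spread between these libraries. Library totals ran from 32332185 to 38764643 counts. All 5 PBS libraries carry the title prefix 388, GA libraries 1 and 2 the prefix 394 and GA libraries 3 to 5 the prefix 400, so that prefix and treatment cannot be told apart.

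The phagocyte oxidase passes electrons from NADPH across the membrane to oxygen and makes superoxide, which serves killing and signalling after phagocytosis or receptor stimulation. Its catalytic chain gp91phox (*Cybb*) is held in the membrane with p22phox (*Cyba*), and the cytosolic subunits p47phox (*Ncf1*) and p40phox (*Ncf4*) are among those that join them with a Rac GTPase when the cell is activated. Inducible nitric oxide synthase (*Nos2*) is a marker of inflammatory activation in rodent macrophages. Superoxide dismutases in the cytosol (*Sod1*) and the mitochondria (*Sod2*) turn superoxide into hydrogen peroxide, which glutathione peroxidase 1 (*Gpx1*) reduces to water.

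In these microglia the oxidase genes and the antioxidant enzymes were detected in every library and *Nos2* in none, and no tested gene was called different between GA and PBS. With edgeR's quasi-likelihood test, 0 of the 8 tested genes passed at an adjusted p-value of 0.05, as was the case for 0.0% of all genes tested, and 0 of the 8 had an unadjusted p-value under 0.05, which 5.75% of all genes had. DESeq2 also called 0 of the 8, and 2 of all genes tested where edgeR called 0. The libraries of both groups overlapped for all 8 genes, while they did not overlap for 0.891% of all genes tested. The fitted log2 fold changes lay between -0.13 and 0.11, with 5 genes higher (*Sod1* among them at only 0.003) and 3 lower in GA and a median of 0.036, beside a median of 0.0002 over all genes tested.

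The membrane chains, which form 1 heterodimer, are shown with their promoters as a description. Whether the promoters bear on how much the 2 genes varied between libraries was not tested. The RefSeq promoter table (build GRCm38.p6) held 6 of the 9 genes, without *Ncf4*, *Rac2* and *Nos2*, and gives 250 bases before and 50 bases after the start of transcription. On the minus strand, *Cybb* lies at chrX:9469275-9469574 and *Cyba* at chr8:122432891-122433190. Capitals mark the matches on either strand to the motifs GAGGAA, the core bound by the myeloid factor PU.1, and GGGCGG, the GC box.
Cybb: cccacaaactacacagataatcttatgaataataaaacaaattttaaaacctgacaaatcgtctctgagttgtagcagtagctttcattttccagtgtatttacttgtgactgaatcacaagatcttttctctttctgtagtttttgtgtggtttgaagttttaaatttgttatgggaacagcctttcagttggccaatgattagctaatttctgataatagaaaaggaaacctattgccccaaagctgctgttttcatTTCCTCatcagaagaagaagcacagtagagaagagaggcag
Cyba: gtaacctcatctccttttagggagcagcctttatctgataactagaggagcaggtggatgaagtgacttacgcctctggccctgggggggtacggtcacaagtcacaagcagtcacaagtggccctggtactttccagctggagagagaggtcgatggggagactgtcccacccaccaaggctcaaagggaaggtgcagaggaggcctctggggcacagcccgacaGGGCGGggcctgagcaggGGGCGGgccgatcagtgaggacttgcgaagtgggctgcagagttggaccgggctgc
The *Cybb* window had a GC content of 35.3%, with 1 match to the PU.1 core and 0 GC boxes. The *Cyba* window had a GC content of 60.7%, with 2 GC boxes and 0 matches to the PU.1 core. The other windows held 1 GC box (*Ncf1* and *Gpx1*) or 4 (*Sod1* and *Sod2*), and *Sod2* also held 1 PU.1 core. Of all 32851 promoter windows of this length, 28.3% held a PU.1 core and 35.7% a GC box, so that these letters are common and a match is a description only. The letters TGACNNNGC, the core of the antioxidant response element, occurred in the *Sod1* window and in 12.4% of all windows.

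Levels were compared between genes as normalized CPM per kilobase of merged exons, here called the level per length. *Cyba* (chromosome 8, 122424776 to 122432930 in GENCODE M21 on GRCm38) had the highest level per length, with a median of 371 and a range of 323 to 425 over the 10 libraries. *Gpx1* followed at 334, with a range of 311 to 440 that overlapped that of *Cyba*. Among the cytosolic subunits, *Ncf1* had a median level per length of 143 and *Ncf4* one of 80.6. The ranges of *Ncf1* and *Ncf4* did not overlap. *Rac2*, the Rac GTPase of blood cells, had a median level per length of 58.6, below that of the widely expressed *Rac1* at 120, and the ranges of the pair did not overlap. *Rac1* shares 2309 exon bases with *Daglb* on the opposite strand, and the library kit is not stated to keep the strand.

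*Cybb* (chromosome X, 9435252 to 9487771) had the lowest level per length of the oxidase genes in the set, with a median of 20.3 and a range of 12.2 to 28.6. *Sod1* had a median of 4.21 and *Sod2* one of 2.48. The order of one pair of neighbours depended on which length was used. With the length of the principal transcript, an alternative chosen after the data were seen, *Sod1* had a median of 26.1 in place of 4.21, close to *Cybb* at 24.8. *Cyba*, *Gpx1*, *Ncf1*, *Rac1*, *Ncf4* and *Rac2* kept their order under both lengths, although the ranges of *Ncf1* and *Rac1* touched with merged exons, at 136.7 and 137.1. The ranges of *Sod1* and *Cybb* overlapped with the principal transcript.

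**Figure D1:**
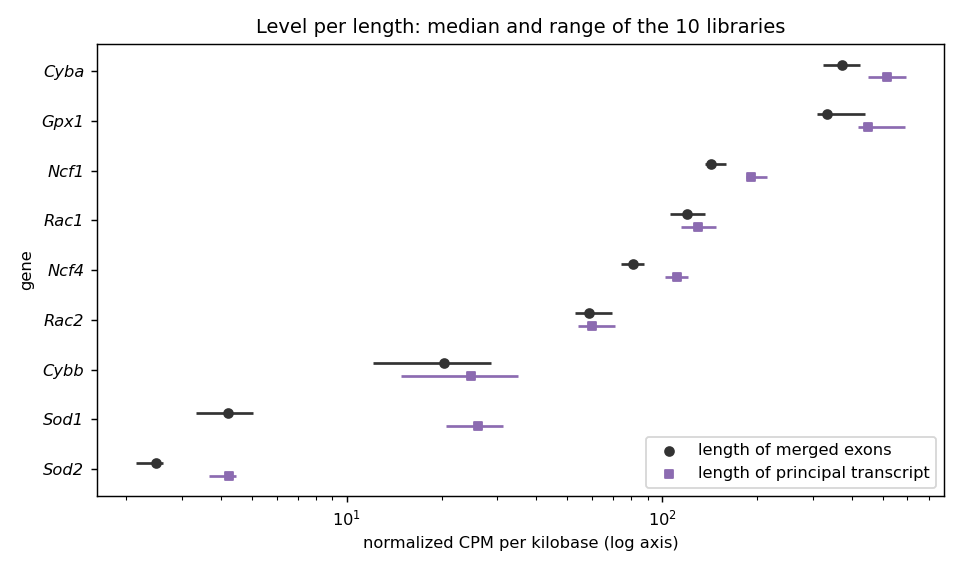
Normalized CPM per kilobase of the 8 tested genes and *Rac1* (log axis), where points are medians and lines the range of the 10 libraries, and colours stand for the 2 lengths used. *Cyba* and *Gpx1* stand highest under both lengths, and *Sod1* moves from 4.21 to 26.1 with the shorter transcript.

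The catalytic chain *Cybb* (ENSMUSG00000015340.10) varied most of the 8 genes. Its level was 78.1, 70.7, 128, 145 and 141 CPM in PBS libraries 1 to 5 and 108, 101, 105, 166 and 128 CPM in GA libraries 1 to 5. PBS libraries 1 and 2 lay below every other library, the remaining PBS libraries lay within the GA range, and GA library 4 was the highest of all. The group means were 113 ± 35.6 CPM (SD, n = 5) in PBS and 122 ± 27.0 CPM (SD, n = 5) in GA, resting on 2365 to 6341 reads per library. The log2 fold change was 0.11 (standard error 0.20, 95% interval -0.32 to 0.54), with an adjusted p-value of 0.967 from edgeR's quasi-likelihood test and *P* = 0.579 in a two-sided exact permutation test on log2 CPM. The coefficient of variation over the 10 libraries was 25.7%, and 69.0% of all genes tested had a lower one. Without PBS library 2 the fitted log2 fold change was -0.016 and without GA library 4 it was -0.021, so that its direction rested on single libraries.

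Its partner *Cyba* (ENSMUSG00000006519.11) was at 376, 336, 393, 420 and 441 CPM in PBS libraries 1 to 5 and at 389, 384, 384, 387 and 384 CPM in GA libraries 1 to 5. The GA libraries lay in the middle of the PBS range and hardly differed from each other. The means were 393 ± 40.8 CPM in PBS and 386 ± 2.16 CPM in GA (SD, n = 5 each), and the log2 fold change was -0.028 (standard error 0.070, 95% interval -0.18 to 0.12, adjusted p-value 0.975 from the same edgeR test). The coefficient of variation was 10.4% in PBS and 0.56% in GA, where counting error alone gives 0.847% at this depth. Only 7 genes of all those tested had a coefficient under 1% in the GA libraries. A narrower spread in GA was common, since 68.6% of all genes tested had a lower coefficient of variation in GA than in PBS, and 6 of the 8 genes here did.

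The ratio of *Cyba* to *Cybb* per length, which does not depend on how libraries are scaled, was 26.95, 26.55, 17.12, 16.19 and 17.46 in PBS libraries 1 to 5 and 20.2, 21.2, 20.4, 13.02 and 16.73 in GA libraries 1 to 5. PBS libraries 1 and 2 had the highest ratios and GA library 4 the lowest. The log2 ratio differed between the groups by -0.17 (GA minus PBS), less than the spread between libraries (two-sided exact permutation test, *P* = 0.357).

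**Figure D2:**
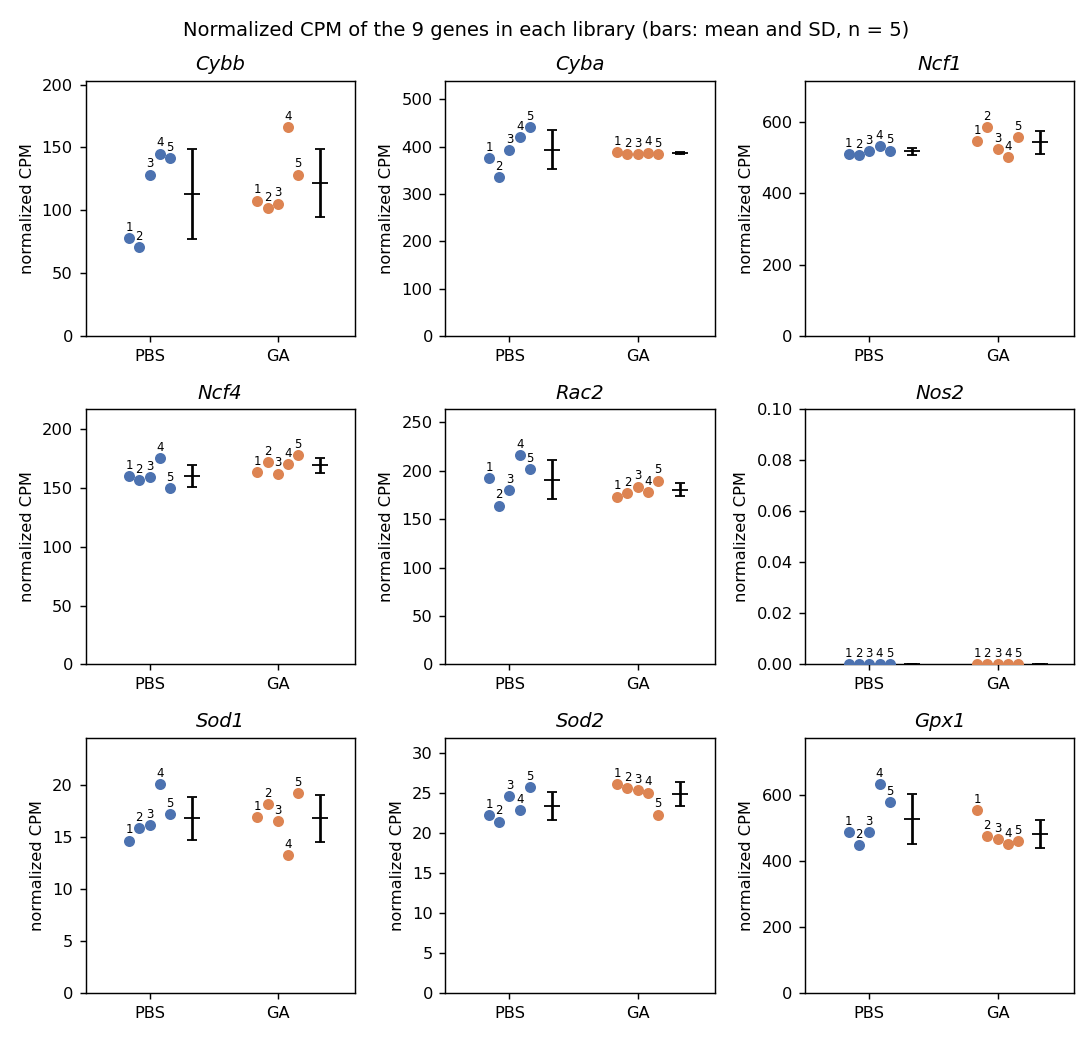
Normalized CPM of each of the 9 genes (vertical axes from 0) in the PBS and GA libraries, where numbers beside the points are library numbers and bars give the mean and SD (n = 5). The groups overlap for each of the 8 detected genes, *Cybb* is spread from 70.7 to 166 CPM, and *Cyba* lies between 384 and 389 CPM in GA.

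Of the cytosolic subunits, *Ncf1* (chromosome 5, 134220053 to 134229625), the organizer that is phosphorylated on activation, was at 509, 508, 519, 533 and 520 CPM in PBS libraries 1 to 5 and at 545, 586, 525, 501 and 557.6 CPM in GA libraries 1 to 5. GA libraries 1, 2 and 5 lay above every PBS library, and GA library 4 lay below every one. The means were 518 ± 10.1 CPM in PBS and 543 ± 32.4 CPM in GA (SD, n = 5 each) and gave a fitted log2 fold change of 0.069 (standard error 0.056, 95% interval -0.052 to 0.19, adjusted p-value 0.921 from edgeR). The two-sided exact permutation test gave *P* = 0.151 over the 10 libraries. With 1 library left out, *P* in this test ran from 0.0159 (without GA library 4) to 0.302. Without GA library 4, edgeR's unadjusted p-value was 0.108. *Ncf1* shares 408 exon bases with *Gtf2ird2* on the opposite strand, whose reads cannot be told apart there.

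*Ncf4* (chromosome 15, 78244801 to 78262580), which binds the phosphoinositide of phagosome membranes, was at 160, 157, 160, 176 and 150 CPM in PBS libraries 1 to 5 and at 164, 172, 162, 170 and 178 CPM in GA libraries 1 to 5. All GA libraries lay above all PBS libraries other than PBS library 4. The means were 160 ± 9.41 CPM in PBS and 169 ± 6.33 CPM in GA (SD, n = 5 each) and gave a fitted log2 fold change of 0.077 (standard error 0.061, 95% interval -0.053 to 0.21, adjusted p-value 0.917 from edgeR). The two-sided exact permutation test gave *P* = 0.111 over the 10 libraries. With 1 library left out, *P* in this test ran from 0.0159 (without PBS library 4) to 0.238. Without PBS library 4, edgeR's unadjusted p-value was 0.0676.

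*Rac2* (chromosome 15, 78559167 to 78572783) was at 192, 164, 180, 216 and 202 CPM in PBS libraries 1 to 5 and at 173, 177, 184, 178 and 190 CPM in GA libraries 1 to 5, all of the latter inside the PBS range. Its log2 fold change was -0.081 (standard error 0.074, 95% interval -0.24 to 0.077, adjusted p-value 0.933 from edgeR). Without PBS library 2 it was -0.13, and without PBS library 4 it was -0.033. *Rac1*, which is not in the set, was at 526 ± 55.5 CPM in PBS and 557 ± 17.9 CPM in GA (SD, n = 5 each). Its adjusted p-value from edgeR was 0.928. Its unadjusted p-value in edgeR's test was 0.267 over all libraries. With 1 library left out it ran from 0.016 (without PBS library 5, the highest for *Rac1*) to 0.492.

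*Nos2* (chromosome 11, 78920787 to 78960254) was counted 0 times in all 10 libraries. A count of 0 allows for up to 3 counts, which is 0.0774 to 0.0928 CPM in a single library and 0.0085 CPM over the 352950173 counts of all libraries together, for counting error only. No group difference in *Nos2* was therefore detectable at this depth. A list of 8 other genes of nitric oxide and arginine metabolism held 4 tested genes, of which 2 were higher and 2 lower in GA and 0 had an unadjusted p-value under 0.05. The highest of them by CPM was *Asl*, argininosuccinate lyase, at 40.4 ± 2.55 CPM (SD, n = 5) in PBS and 41.9 ± 2.65 CPM (SD, n = 5) in GA.

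The antioxidant enzymes also overlapped between groups. *Sod1* (chromosome 16, 90220754 to 90226329) was at 14.6, 15.8, 16.2, 20.1 and 17.1 CPM in PBS libraries 1 to 5 and at 16.9, 18.1, 16.5, 13.2 and 19.2 CPM in GA libraries 1 to 5. PBS library 4 was the highest and GA library 4 the lowest of all. The group means were 16.8 ± 2.06 CPM (SD, n = 5) and 16.8 ± 2.27 CPM (SD, n = 5), and the fitted log2 fold change was 0.003 (standard error 0.12, 95% interval -0.26 to 0.26, adjusted p-value 0.998 from edgeR). These values rest on 504 to 747 reads per library. A processed pseudogene, *Gm8566*, matches 465 bases of a *Sod1* transcript at 97.8% identity and was counted 0 to 3 times. Reads that match both may be lost or split in the counting, which makes the level of *Sod1* uncertain.

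*Sod2* (chromosome 17, 13006846 to 13040063) was at 22.2, 21.5, 24.6, 22.9 and 25.8 CPM in PBS libraries 1 to 5 and at 26.2, 25.7, 25.4, 25.1 and 22.3 CPM in GA libraries 1 to 5. GA libraries 1 to 4 lay together above all PBS libraries but the fifth, and GA library 5 lay apart from them. The means were 23.4 ± 1.77 CPM in PBS and 24.9 ± 1.501 CPM in GA (SD, n = 5 each) and gave a fitted log2 fold change of 0.090 (standard error 0.087, 95% interval -0.095 to 0.28, adjusted p-value 0.938 from edgeR). A stretch of 3110 bases of a *Sod2* transcript matches *Rps6ka2* at 98.3% identity, and 3108 bases match a long noncoding RNA, so that reads there may be lost or split. The ratio of *Sod2* to *Sod1* per length was 0.559 ± 0.0654 (SD, n = 5) in PBS and 0.600 ± 0.106 (SD, n = 5) in GA (two-sided exact permutation test, *P* = 0.500), and it was highest in GA library 4, at 0.753. With the length of the principal transcript the mean ratio was 0.154 in PBS and 0.165 in GA, so that its size depends on the length used.

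*Gpx1* (chromosome 9, 108338903 to 108340343), a selenoprotein, was at 487, 448, 488, 633 and 579 CPM in PBS libraries 1 to 5 and at 555, 476, 465, 451 and 459 CPM in GA libraries 1 to 5. GA libraries 2 to 5 lay below all PBS libraries but the second, and GA library 1 lay apart from them among the higher PBS libraries. The means were 527 ± 76.6 CPM in PBS and 481 ± 42.0 CPM in GA (SD, n = 5 each) and gave a fitted log2 fold change of -0.13 (standard error 0.094, 95% interval -0.33 to 0.069, adjusted p-value 0.901 from edgeR). Without PBS library 4 the log2 fold change of *Gpx1* was -0.057, and without GA library 1 it was -0.19.

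Across the 8 genes, PBS library 4 was the highest of the 10 for 3 genes and above the median for 7, and PBS library 2 was the lowest for 5 genes and above the median for 0. In GA, library 4 was the highest for *Cybb* and the lowest for *Ncf1* and *Sod1*, so that its genes did not move together. Within GA, prefix 400 and prefix 394 differed in 0 of the 8 genes at an unadjusted p-value under 0.05 in edgeR's test, beside 5.48% of all genes tested, and *Cybb* had the largest fitted difference of the 8, with a mean of 133 CPM for prefix 400 (3 libraries) against 105 CPM for prefix 394 (2 libraries).

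**Figure D3:**
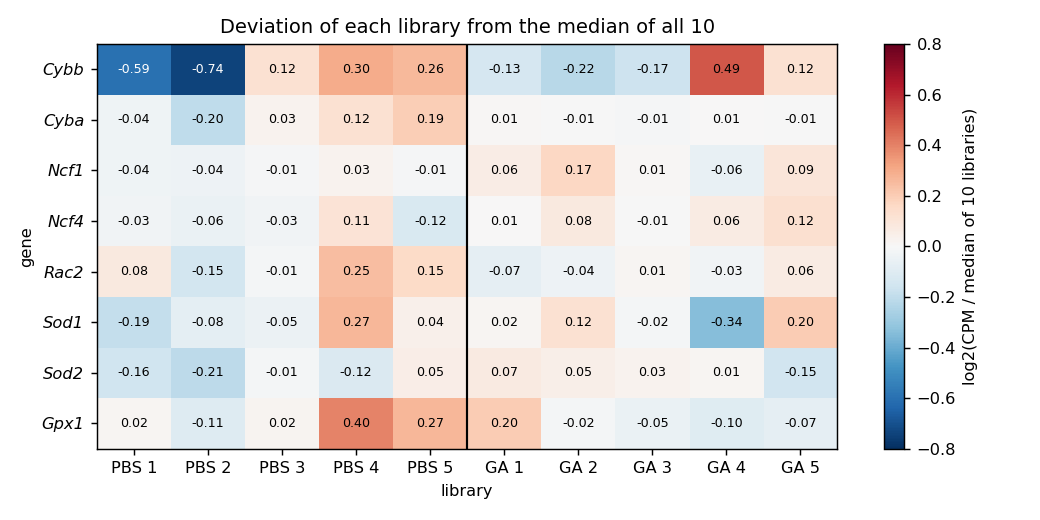
Log2 ratio of each gene's normalized CPM in a library to its median over the 10 libraries, with PBS libraries left and GA libraries right of the line. *Cybb* has the widest colours, from -0.74 in PBS library 2 to 0.495 in GA library 4, and *Cyba* in GA stays within 0.011 of the median.

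The sort was checked with marker genes, since neutrophils and monocytes also carry the phagocyte oxidase, and in bulk libraries fewer cells of a type and less RNA per cell cannot be told apart. All 10 microglia markers were tested and summed to 56190 to 66370 CPM in PBS and 57210 to 62010 CPM in GA, with *Csf1r* at 16780 ± 1190 CPM in PBS and 16700 ± 824 CPM in GA (SD, n = 5 each). The 12 neutrophil markers summed to 44.0 to 469 CPM in PBS and 17.6 to 183 CPM in GA, and all 9 tested were lower in GA, 7 of them at an unadjusted p-value under 0.05 and 0 at an adjusted one in edgeR's test. Of these, *S100a9* had 53.7 ± 35.2 CPM (SD, n = 5) in PBS and 15.1 ± 14.0 CPM (SD, n = 5) in GA, while *Elane* and *Mpo*, which define neutrophil precursors, had at most 13 and 3 counts in a library. *S100a8* had 34.1 ± 21.04 CPM in PBS and 10.1 ± 9.89 CPM in GA, and *Ngp* had 69.6 ± 42.7 CPM in PBS and 16.2 ± 16.2 CPM in GA (SD, n = 5 each). The 7 monocyte markers summed to 32.3 to 89.6 CPM in PBS and 32.96 to 48.1 CPM in GA, and 5 of the 6 tested were lower in GA, 3 of them at an unadjusted p-value under 0.05 in edgeR's test. The most abundant by CPM was *Ccr2*, at 31.3 ± 11.6 CPM in PBS and 29.1 ± 1.87 CPM in GA (SD, n = 5 each). The neutrophil sum was 165, 44.0, 469, 299 and 388 CPM in PBS libraries 1 to 5. In GA libraries 1 to 5 the neutrophil sum was 44.7, 183, 17.6, 29.8 and 111 CPM. The 6 markers of border-associated macrophages, *Mrc1* the highest by CPM, summed to 43.3 to 246 CPM in PBS and 47.3 to 185 CPM in GA. All 6 were tested and were lower in GA, with a median log2 fold change of -0.30 and 0 unadjusted p-values under 0.05 in edgeR's test. Their sum was 84.6, 43.3, 140.5, 246 and 51.1 CPM in PBS libraries 1 to 5. In GA libraries 1 to 5 the macrophage sum was 47.3, 81.9, 87.6, 185 and 85.9 CPM. The part of these cells in the level of the oxidase genes was not tested.

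Further genes of the pathway came from lists drawn up by function. Of 14 other NADPH oxidase genes, 8 were tested, 4 higher and 4 lower in GA with a median log2 fold change of 0.015, and 0 had an unadjusted p-value under 0.05. *Nox3*, *Nox4* and *Noxa1* had 0 counts in all libraries. Of 14 genes of superoxide and peroxide removal, 13 were tested, 6 higher and 7 lower in GA with a median of -0.003, and 1, *Srxn1*, had an unadjusted p-value under 0.05, beside 5.75% of all genes tested. The highest by CPM, peroxiredoxin 1 (*Prdx1*), was at 154 ± 19.5 CPM (SD, n = 5) in PBS and 153 ± 9.40 CPM (SD, n = 5) in GA. Of 13 glutathione genes, 12 were tested, 3 higher and 9 lower with a median of -0.057, and 1, *Gpx3*, had an unadjusted p-value under 0.05. Single genes under 0.05 in lists of this size are near the share of 5.75% over all genes tested. The highest by CPM, *Gclc*, which makes the first step of glutathione synthesis, was at 116 ± 18.9 CPM in PBS and 115 ± 15.7 CPM in GA (SD, n = 5 each).

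*Srxn1*, sulfiredoxin, which restores overoxidized peroxiredoxins, was at 4.06, 4.66, 4.73, 5.21 and 3.57 CPM in PBS libraries 1 to 5 and at 4.53, 7.05, 6.88, 8.89 and 5.48 CPM in GA libraries 1 to 5. All GA libraries but the first lay above every PBS library. On the log2 scale its fitted change was 0.56 (standard error 0.20, unadjusted p-value 0.0128 and adjusted p-value 0.847 from edgeR), and it did not pass the test over all genes. The unadjusted p-value was between 0.00362 and 0.0471 in the 10 fits that lacked 1 library, and DESeq2 gave an adjusted p-value of 0.440. *Gpx3*, a secreted glutathione peroxidase, was at 4.45 ± 0.552 CPM (SD, n = 5) in PBS and 6.06 ± 1.497 CPM (SD, n = 5) in GA, with GA libraries 2 to 5 above every PBS library. On the log2 scale its fitted change was 0.45 (standard error 0.19, unadjusted p-value 0.0353 and adjusted p-value 0.854 from edgeR), and its unadjusted p-value was between 0.0159 and 0.114 in the 10 fits that lacked 1 library, under 0.05 in 5 of them and highest without GA library 4. For both genes GA library 4 was the highest, and they rest on 126 to 339 and 132 to 304 reads per library. Both were named for their unadjusted p-value in these data, so that fits on the same libraries are no separate support.

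Of 9 genes listed under the NRF2 pathway, the main transcriptional response to oxidants, 8 were tested, 4 higher and 4 lower in GA, with log2 fold changes from -0.10 to 0.042 and 0 unadjusted p-values under 0.05. Genes of the lists above, *Srxn1* among them, are not counted in this list, so that the range holds for these genes only. The ferritin heavy chain *Fth1* was the highest by CPM, at 1259 ± 237 CPM (SD, n = 5) in PBS and 1267 ± 56.9 CPM (SD, n = 5) in GA. Of 9 genes that supply NADPH, 8 were tested, 4 higher and 4 lower, with log2 fold changes from -0.11 to 0.12 and 0 unadjusted p-values under 0.05. Mitochondrial isocitrate dehydrogenase (*Idh2*) was the highest by CPM, at 231 ± 21.4 CPM (SD, n = 5) in PBS and 218 ± 8.92 CPM (SD, n = 5) in GA. In these lists 0 genes passed at an adjusted p-value of 0.05, by edgeR or by DESeq2.

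**Figure D4:**
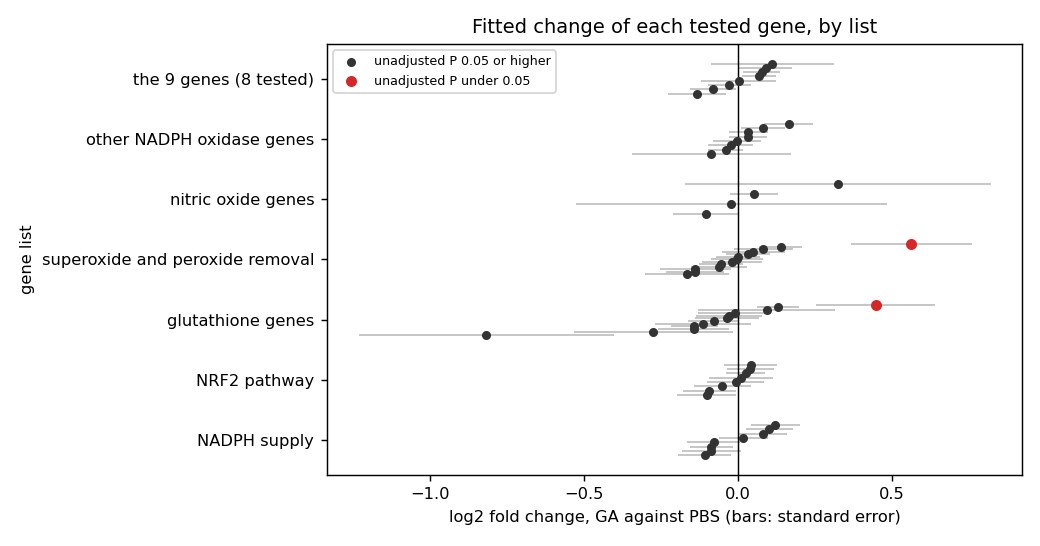
Log2 fold change of GA against PBS (horizontal axis, edgeR) for each tested gene of the 9-gene set and of the 6 pathway lists, with bars for the standard error. The 8 tested genes of the set lie between -0.13 and 0.11, and the points with an unadjusted p-value under 0.05 are *Srxn1* at 0.56 and *Gpx3* at 0.45.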

How the data were processed

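Microglia RNA was pre-amplified with the SMARTer kit and made into Nextera XT libraries. The authors deposited raw counts of reads per gene, without normalization. The submitters' processing notes name bcl2fastq 2.19.0, fastp 0.20.0, STAR 2.7.0f, featureCounts of Subread 1.6.4, DESeq2 and the build GRCm38.p6. The strand setting and the treatment of reads with several matches are not given in the sources used here.

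From these counts, genes were kept with filterByExpr (minimum count 10), normalized by TMM and tested with edgeR 4.0.16 in R 4.3.3 between GA and PBS with no further term, with p-values adjusted by Benjamini-Hochberg over all 14481 genes. CPM are TMM-normalized. The 95% intervals use the standard error with 14.1 degrees of freedom. Exact permutation tests used log2(CPM + 0.1), 252 arrangements and a smallest *P* of 0.00794. Lengths and positions came from GENCODE M21, which held 54586 of the 55453 symbols, and near-identical transcripts (at least 200 bases at 95% identity) from BLAST 2.17.0. The limits given for a count of 0 cover counting error alone: the reads were amplified and carry no molecular identifiers. No 2 libraries were copies, with a chi-square per degree of freedom of at least 14.0 over the 45 pairs. The edgeR fit was tested on simulated data.

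The genes and lists were chosen with earlier results of these data known. Named were the 9 genes, *Rac1*, and of each other pathway list the most abundant gene and those with an unadjusted p-value under 0.05, and of the markers the most abundant ones with *S100a8*, *S100a9* and *Ngp*. A further gene that this rule names is not reported here. Outside this rule and after their values were seen, *Cat*, *Sod3*, *Noxo1*, *Nox1*, *Elane* and *Mpo* were named, and *Nox3*, *Nox4* and *Noxa1* as the genes of their list with 0 counts. Marker lists of red cells, lymphocytes, neurons with glia, and vessels summed to at most 2.44, 27.2, 74.6 and 54.4 CPM in a library. Alternatives were DESeq2 1.42.0, limma-voom (limma 3.58.1), robust fits, other scalings, filters and pseudocounts, each library left out, each GA prefix alone and the title number as a block.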

Additional observations from a re-analysis of the deposited data

Results flagged for a closer look

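In the GA group, *Gpx1* stood at 554.5 CPM in GA library 1, apart from the other GA libraries at 451 to 476 CPM, a gap of 0.759 of the group's range. *Sod2* stood at 22.33 CPM in GA library 5, apart from the others at 25.1 to 26.2 CPM, a gap of 0.719 of the range. The critical value for 5 libraries is 0.71, and chance alone places about 1 in 20 groups beyond it, while 28 groups were examined.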

How the results depend on the processing

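Over 20 alternative fits, 0 of the 8 genes passed at an adjusted p-value of 0.05, and their adjusted p-values ran from 0.667 to 1.0. Over all genes, DESeq2 called 2 where edgeR called 0, and fits without 1 library called 0 to 1, the 1 without GA library 1. Of 256 alternative values of single genes, 233 kept their direction and their side of 0.05 (the adjusted p-value in the fits across all genes, the unadjusted *P* in the permutation tests) and 21 changed direction. Without 1 library, the fitted log2 fold change ran from -0.021 to 0.22 for *Cybb*, from -0.080 to 0.021 for *Cyba* and from -0.050 to 0.083 for *Sod1*, and the log2 CPM difference from -0.0014 to 0.26, from -0.077 to 0.021 and from -0.052 to 0.083. The other 5 genes kept their direction without 1 library, *Ncf1* from 0.040 to 0.10, *Ncf4* from 0.059 to 0.11, *Rac2* from -0.13 to -0.033, *Sod2* from 0.061 to 0.13 and *Gpx1* from -0.19 to -0.057. With prefix 394 alone *Cybb* had -0.10, with prefix 400 alone *Sod1* had -0.034, and with at least 10 counts in every library *Sod1* had -0.0013. The difference in the log2 ratio of *Cyba* to *Cybb* ran from -0.255 to -0.055 and that of *Sod2* to *Sod1* from 0.005 to 0.18 without 1 library. The cause of these changes was not tested.

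The title number as replicate block is a number only, since same-numbered libraries had deviations that correlated at -0.116 to 0.049. Title numbers 4 and 5 occur only in PBS, so that with this block PBS libraries 4 and 5 do not enter the difference between GA and PBS. With this block *Cybb* had 0.49 (unadjusted p-value 0.0231), *Cyba* 0.077, *Rac2* 0.022 and *Gpx1* 0.018, *Gpx3* had 0.39 (unadjusted p-value 0.0973), and edgeR called 0 genes. These values therefore leave out PBS libraries 4 and 5 and are not a result on all 10 libraries. Of the 8 genes, *Sod1* had the fewest reads, 504 in its lowest library.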

Other observations

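Of the NOX1 system, chosen after its values were seen, the organizer *Noxo1* was counted 141 to 382 times per library, at 7.36 ± 2.96 CPM (SD, n = 5) in PBS and 6.92 ± 1.44 CPM (SD, n = 5) in GA. The catalytic chain *Nox1* was counted 0 to 4 times and the activator *Noxa1* 0 times. *Noxo1* shares 2122 exon bases with *Tbl3* on the opposite strand, whose reads cannot be told apart there. Extracellular superoxide dismutase (*Sod3*) was counted 0 to 1 times. Catalase (*Cat*), also chosen after its values were seen, was at 136 ± 13.8 CPM (SD, n = 5) in PBS and 139 ± 4.28 CPM (SD, n = 5) in GA.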
